A study of Mus musculus with 6 samples.

Results

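The 8 genes described here encode ATP-binding cassette (ABC) transporters of the efflux and lipid export type. They were the rows of the CPM table whose gene symbol was Abcg2, Abcb1a, Abcb1b, Abcc1, Abcc4, Abcc5, Abca1 or Abcg1, and all 8 were found among its 46959 rows. RNA was sequenced from 3 control and 3 MaeaCsf1r-Cre libraries of haematopoietic stem cells (HSCs), sorted from bone marrow as lineage- Sca-1+ c-kit+ CD150+ CD48- cells, each made from 2000 cells pooled from 2 mice. In the MaeaCsf1r-Cre mice a floxed Maea gene was deleted by a Csf1r-iCre transgene backcrossed onto C57BL/6, and the controls were littermates whose alleles the labels do not name. The series design gives the age as 8 weeks and the study's methods as 7 to 12 weeks. Maea encodes a subunit of an E3 ubiquitin ligase. Csf1r encodes the M-CSF receptor of monocytes and macrophages, so macrophages of these mice are a target of the deletion as well.

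ABC transporters hydrolyse ATP in their nucleotide-binding domains to move a substrate across a membrane. Abcg2 (BCRP) expels the Hoechst dye and gives stem cells of the bone marrow the side population phenotype, and its substrates include porphyrins and many drugs. Abcb1a and Abcb1b are the rodent copies of P-glycoprotein, the multidrug resistance pump, which expels rhodamine dyes. Abcc1, Abcc4 and Abcc5 are multidrug resistance-associated proteins that export organic anions such as glutathione conjugates and cyclic nucleotides. Abca1 and Abcg1 hand cellular cholesterol to apolipoprotein A-I and to HDL, are switched on by the liver X receptors when sterols accumulate, and restrain the proliferation of haematopoietic stem and progenitor cells.

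Depth was read from the size of the smallest CPM steps, which gave 32924000 to 39567000 reads for control and 44109000 to 60890000 reads for MaeaCsf1r-Cre libraries, so that depth differed between the groups without overlap. A signal of 3 reads was worth 0.0493 to 0.0911 CPM, a floor that covers counting error only. Maea was at 108, 116 and 123 CPM in the control libraries numbered 1, 2 and 3, and at 76.9, 88.6 and 101 CPM in the MaeaCsf1r-Cre libraries of these numbers, a difference of log2(CPM + 1), MaeaCsf1r-Cre minus control, of -0.39 with a standard error of 0.13. In limma the unadjusted p of Maea was 0.0214 and its adjusted p 0.967, so it was not called at 0.05. The groups did not overlap, as for 6.06% of tested genes with lower values in MaeaCsf1r-Cre HSCs. No value separates the floxed part of the gene from the rest. All 12 HSC markers listed passed the filter on low values, while Ms4a1, Pax5 and Igll1 of the B cell list and Ly6g of the neutrophil list were listed at 0 in every library. The neutrophil list summed to 76.7 to 299.7 CPM in control and 76.0 to 156 CPM in MaeaCsf1r-Cre libraries, and the B cell list to 33.8 to 55.4 and 13.9 to 27.0 CPM, mostly Cd79b and Ighm. Fewer cells of a type and less RNA per cell cannot be told apart in these pooled samples.

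Levels of different genes were set side by side as CPM per kb of merged exons. On this scale Abcg1 and Abcg2 stood at the top, at 16.7 ± 4.11 and 12.8 ± 1.48 CPM per kb in control HSCs (SD, n = 3 each). Abcc4 followed at 7.01 ± 0.289, Abcc1 at 4.39 ± 0.717 and Abcc5 at 2.08 ± 0.39 CPM per kb. Abca1 was at 1.87 ± 0.275, Abcb1b at 1.66 ± 0.743 and Abcb1a at 0.173 ± 0.0974 CPM per kb. Ranges over the control libraries overlapped between the neighbours Abcg1 and Abcg2, between Abcc5 and Abca1, and between Abca1 and Abcb1b, so their order was within the spread. They did not overlap between Abcg2 and Abcc4, Abcc4 and Abcc1, Abcc1 and Abcc5, or Abcb1b and Abcb1a.

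In MaeaCsf1r-Cre HSCs the order was the same except that Abcb1b, at 1.49 ± 0.491 CPM per kb, stood above Abca1, at 0.998 ± 0.579 CPM per kb (SD, n = 3 each). Averaged over the 6 libraries, Abcg1 reached percentile 75.3 and Abcg2 percentile 70.8 of all tested genes by this measure, whereas Abca1 was at percentile 19.3. Merged exons join every annotated transcript of a gene, which brought Abcc1 to 15092 bases against 6792 for its longest coding transcript. With the coding transcript as the length, chosen after seeing the data, Abcc1 (9.76 CPM per kb) stood above Abcc4 (7.84), and Abcb1b (3.08) above Abca1 (1.88), in control HSCs.

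**Figure D1:**
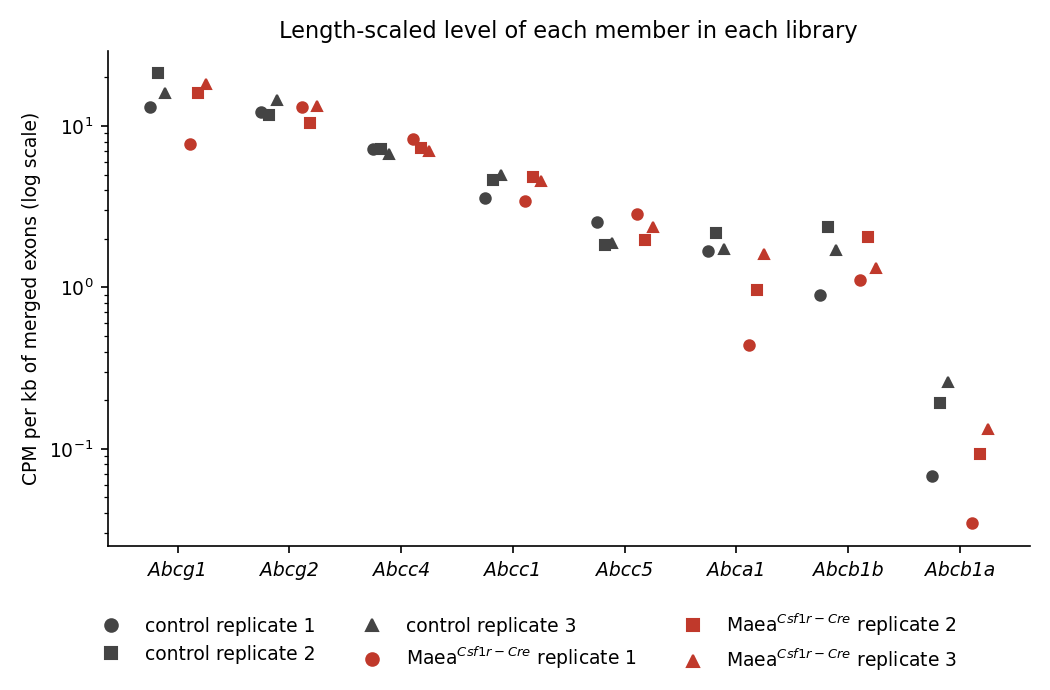
CPM per kb of merged exons (log axis) of the 8 transporter genes in each of the 6 libraries, with genes ordered by their control mean. Abcg1 and Abcg2 lie above 7 CPM per kb in every library, and Abcb1a lies below 0.3 in every library.

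Abcg2 is a gene of the plus strand of chromosome 6, where GRCm38 (mm10) places it between 58584523 and 58695676. It was at 99.7, 95.3 and 118 CPM in the control libraries numbered 1, 2 and 3, and at 106, 85.9 and 108 CPM in the MaeaCsf1r-Cre libraries of these numbers. The groups overlapped, and the highest value was in control replicate 3 and the lowest in MaeaCsf1r-Cre replicate 2. The means were 104 ± 12.1 and 100.1 ± 12.3 CPM (SD, n = 3 each), a log2 difference of -0.06 with a standard error of 0.14 (limma, adjusted p = 0.974). The 95% interval of the fold change ran from 0.762 to 1.2. Rescaling the libraries by median ratios brought the log2 difference to 0 and a correction for merged exon length to 0.08.

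The P-glycoprotein genes Abcb1a and Abcb1b lie beside each other on the plus strand of chromosome 5, at 8660077 to 8748575 and 8798147 to 8866315. Their coding sequences, each of 3828 bases, matched at 88.0% of 3819 aligned bases. The longest identical run of their transcripts was 338 bases long, spanned exons 13 and 14 of both genes and lay within the coding sequence. The first 60 coding bases are shown because they tell the genes apart, with the bases that differ in capitals.
Abcb1a: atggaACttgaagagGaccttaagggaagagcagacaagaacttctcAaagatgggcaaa
Abcb1b: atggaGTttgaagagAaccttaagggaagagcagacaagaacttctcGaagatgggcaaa
The next sequence, 115 bases of the identical run, is shown because a read of 150 bases that lies within the run cannot be assigned to either gene. It encodes part of the first nucleotide-binding domain, and the capitals mark the codons of its signature motif.
Shared by Abcb1a and Abcb1b: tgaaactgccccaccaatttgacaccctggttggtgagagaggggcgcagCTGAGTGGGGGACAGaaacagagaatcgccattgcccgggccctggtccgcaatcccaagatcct
It lies at chr5:8702559-8702893 in Abcb1a and chr5:8824879-8825213 in Abcb1b, with an intron between the exons. Of all windows of 150 bases, the length of the reads, 4.41% of the Abcb1a transcript and 5.15% of the Abcb1b transcript occurred in the other, and none was shared with the neighbouring Abcb4.

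Abcb1b was the main P-glycoprotein transcript. It was at 7.16, 19.0 and 13.7 CPM in the control libraries numbered 1, 2 and 3, and at 8.88, 16.3 and 10.5 CPM in the MaeaCsf1r-Cre libraries of these numbers. Both groups were lowest in replicate 1 and highest in replicate 2, and they overlapped. The log2 difference was -0.09 with a standard error of 0.36 (limma, adjusted p = 0.981), with a 95% interval of 0.53 to 1.66 for the fold change. Its sign turned under quantile normalization (0.02) and a correction for merged exon length (0.05).

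Abcb1a was at 0.374, 1.05 and 1.43 CPM in the control libraries numbered 1, 2 and 3, and at 0.189, 0.508 and 0.723 CPM in the MaeaCsf1r-Cre libraries of these numbers. These values correspond to about 12 to 49 reads per library, above the floor of 3 reads, and each MaeaCsf1r-Cre library was below its same-numbered control while the groups overlapped. The gene reached 1 CPM in 2 libraries, both control, and therefore stayed out of the test. In the fit with no filter its log2 difference was -0.38 with a standard error of 0.25 (limma, adjusted p = 0.889 over 24957 genes). Per kb, Abcb1b exceeded Abcb1a by 13.1, 12.5 and 6.56 times in control replicates 1, 2 and 3, and by 32.2, 22.1 and 9.97 times in MaeaCsf1r-Cre replicates 1, 2 and 3. The ranges of this ratio overlapped between the groups. Reads from the shared stretches could move between the genes, and of the 2 genes that overlap their exons on the opposite strand, Gm42686 was at most at 0.0451 CPM and Gm5106 at most at 0.58 CPM.

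The windows before the starts of these genes are shown because the genes are near copies with unlike levels. They are RefSeq promoter windows of GRCm38.p6, 250 bases before and 50 bases after the annotated start, plus strand, at chr5:8566841-8567140 for Abcb1a and chr5:8797897-8798196 for Abcb1b. The Abcb1a window belongs to a start far upstream of the gene's GENCODE start, at 8660077, and lies outside the GENCODE gene. The Abcb1b window holds its GENCODE start, at 8798147, so the 2 windows are not matched in position. Capitals mark any copy of the GC box GGGCGG, the E-box CACGTG, the TATA motif TATAAA or the nuclear receptor core AGGTCA on either strand.
Abcb1a promoter window: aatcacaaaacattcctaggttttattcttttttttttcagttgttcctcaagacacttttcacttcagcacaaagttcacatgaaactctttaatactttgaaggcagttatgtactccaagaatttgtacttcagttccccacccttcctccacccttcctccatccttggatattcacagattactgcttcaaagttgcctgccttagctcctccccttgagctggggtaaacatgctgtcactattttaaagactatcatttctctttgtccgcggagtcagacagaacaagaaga
Abcb1b promoter window: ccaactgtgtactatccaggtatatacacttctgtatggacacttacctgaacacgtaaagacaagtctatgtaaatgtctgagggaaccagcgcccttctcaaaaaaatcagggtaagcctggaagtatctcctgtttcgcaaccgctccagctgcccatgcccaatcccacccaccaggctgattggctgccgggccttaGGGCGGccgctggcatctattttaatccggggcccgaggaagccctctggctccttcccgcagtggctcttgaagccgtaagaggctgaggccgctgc
The Abcb1a window held 40.3% G and C and no GC box on either strand, and the Abcb1b window held 55.0% and 1 GC box. The motif was present in 35.66% of the 32851 windows in the table. The CCAAT motif was found 2 times in the Abcb1b window over both strands and 0 times in the Abcb1a window, against 37.41% of all windows with at least 1 copy. Whether these starts are used in HSCs, and whether the windows bear on the levels of the genes, was not tested.

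Abcc1 lies on chromosome 16 from 14361558 to 14475737. It exports leukotriene C4 and glutathione conjugates, and was at 54.1, 70.1 and 74.8 CPM in the control libraries numbered 1, 2 and 3, and at 51.5, 72.4 and 68.5 CPM in the MaeaCsf1r-Cre libraries of these numbers. In both groups replicate 1 was the lowest, and the groups overlapped. The log2 difference was -0.05 with a standard error of 0.18 (limma, adjusted p = 0.981), with a 95% interval of 0.723 to 1.29 for the fold change, and the sign turned under median ratios (0.01) and the length correction (0.14).

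Abcc4, on chromosome 14 from 118482692 to 118706219, exports cyclic AMP and prostaglandins and is abundant in platelets. It was at 46.0, 45.7 and 42.7 CPM in the control libraries numbered 1, 2 and 3, and at 52.9, 46.9 and 44.8 CPM in the MaeaCsf1r-Cre libraries of these numbers. Each MaeaCsf1r-Cre library was above its same-numbered control, yet replicate 3 of the MaeaCsf1r-Cre group lay below 2 controls. The log2 difference was 0.10 with a standard error of 0.13 (limma, adjusted p = 0.967), with a 95% interval of 0.876 to 1.31 for the fold change. Abcc4 had the smallest coefficient of variation of the 8 genes, 4.12% in control and 8.67% in MaeaCsf1r-Cre HSCs. The 10 megakaryocyte and platelet markers summed to 320.1 to 1415 CPM in control and 390 to 787 CPM in MaeaCsf1r-Cre libraries. Control replicate 3, where they were highest, had the lowest Abcc4. In the MaeaCsf1r-Cre group they were highest in replicate 2, where Abcc4 lay between its values in replicates 1 and 3. The part of platelet RNA in the level of Abcc4 was not tested.

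Abcc5, on chromosome 16 from 20331303 to 20426394, exports cyclic GMP and other nucleotides. It was at 27.0, 19.5 and 20.2 CPM in the control libraries numbered 1, 2 and 3, and at 30.2, 20.9 and 25.3 CPM in the MaeaCsf1r-Cre libraries of these numbers. Replicate 1 was the highest of both groups, and each MaeaCsf1r-Cre library was above its same-numbered control. The log2 difference was 0.19 with a standard error of 0.20 (limma, adjusted p = 0.967), with a 95% interval of 0.832 to 1.56 for the fold change.

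**Figure D2:**
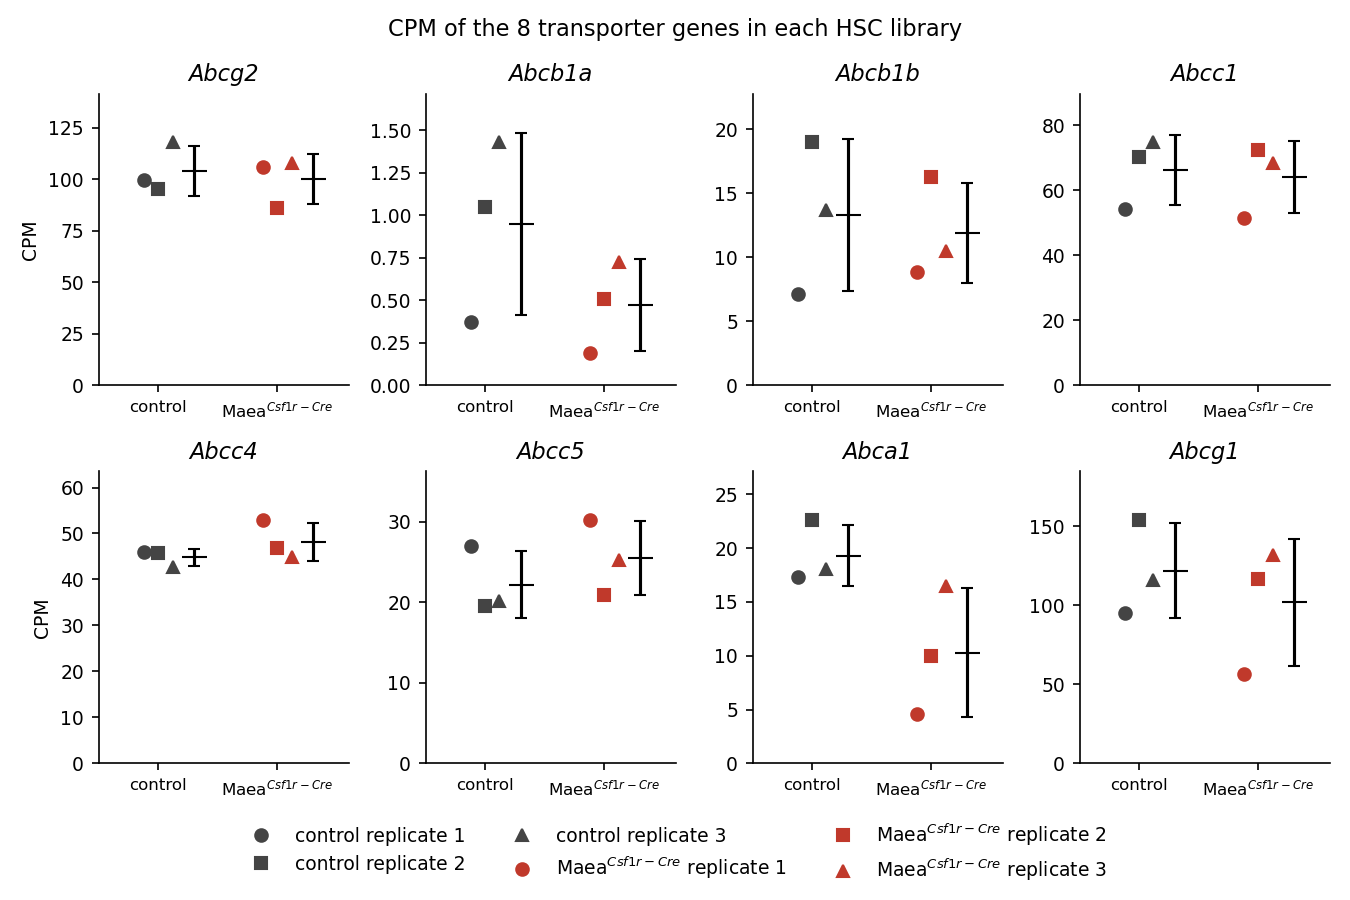
CPM of the 8 transporter genes in the 3 control (grey) and 3 MaeaCsf1r-Cre (red) libraries, with a marker shape for each replicate number and the mean ± SD beside each group. Each panel has its own axis from 0. The groups are apart for Abca1, where the highest MaeaCsf1r-Cre library is at 16.5 and the lowest control library at 17.3 CPM, and overlap in the other panels.

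Abca1 and Abcg1 carry the cholesterol export of the group. Abca1, on the minus strand of chromosome 4 from 53030787 to 53159895, was at 17.3, 22.6 and 18.1 CPM in the control libraries numbered 1, 2 and 3, and at 4.55, 9.94 and 16.5 CPM in the MaeaCsf1r-Cre libraries of these numbers. Every MaeaCsf1r-Cre library was below every control library, by a wide margin in MaeaCsf1r-Cre replicates 1 and 2. MaeaCsf1r-Cre replicate 3 was less than 1 CPM below the lowest control library, which was at 17.3 CPM. The means were 19.3 ± 2.85 and 10.3 ± 6.0 CPM (SD, n = 3 each), a log2 difference of -0.98 with a standard error of 0.38. The 95% interval of the fold change was 0.273 to 0.934. In limma its unadjusted p was 0.0336 and its adjusted p 0.967, so the difference did not pass the threshold of 0.05. Without MaeaCsf1r-Cre replicate 1 the log2 difference was -0.54, and without MaeaCsf1r-Cre replicate 3 it was -1.38.

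Abcg1, on the plus strand of chromosome 17 from 31057675 to 31117988, was at 95.2, 154 and 116 CPM in the control libraries numbered 1, 2 and 3, and at 56.6, 117 and 132 CPM in the MaeaCsf1r-Cre libraries of these numbers. It was lower in MaeaCsf1r-Cre replicates 1 and 2 than in their same-numbered controls and higher in replicate 3, and the groups overlapped. The log2 difference was -0.32 with a standard error of 0.32 (limma, adjusted p = 0.967), with a 95% interval of 0.48 to 1.35 for the fold change. Without MaeaCsf1r-Cre replicate 1 its sign turned, to 0.06. The same-numbered log2 differences were -1.72, -1.11 and -0.12 for Abca1 and -0.74, -0.39 and 0.19 for Abcg1 in replicates 1, 2 and 3, so for both genes replicate 1 held the widest gap and replicate 3 the narrowest or opposite.

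The Abca1 promoter window is shown as that of the member whose groups did not overlap. It comes from the minus strand at chr4:53159846-53160145 of the same RefSeq table, and capitals mark the same motifs.
Abca1 promoter window: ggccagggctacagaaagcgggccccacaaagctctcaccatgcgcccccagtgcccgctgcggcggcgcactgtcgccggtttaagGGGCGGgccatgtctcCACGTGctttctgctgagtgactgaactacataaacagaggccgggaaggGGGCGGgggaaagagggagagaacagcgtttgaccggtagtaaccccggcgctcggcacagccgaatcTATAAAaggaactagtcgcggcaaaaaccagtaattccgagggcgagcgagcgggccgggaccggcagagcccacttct
It held 2 GC boxes, 1 E-box and 1 TATA motif over both strands. The E-box was in 7.15% and the TATA motif in 13.62% of all windows. The DR4 element that liver X receptors bind, in the strict form of 2 direct copies of AGGTCA with any 4 bases between them, was not among these letters on either strand, and neither was a single AGGTCA, whereas 0.02% and 16.26% of all windows held them. The known liver X receptor element of the Abca1 promoter is an imperfect DR4, and imperfect copies were not searched for. The strict search therefore cannot show whether the unmarked letters of this window hold that element. Of the 8 genes, 6 had a window in the table, without Abcc1 and Abcg1.

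Macrophages express Abca1 strongly, and most of their markers had lower means in MaeaCsf1r-Cre libraries. Of 14 macrophage markers 13 had a lower mean there, and 6 were lower in every MaeaCsf1r-Cre than in every control library. Of the 11 tested, 7 had an unadjusted p under 0.05 in that direction and 0 an adjusted p under 0.05 (limma). The list summed to 67.0 to 170.1 CPM in control and 41.3 to 112 CPM in MaeaCsf1r-Cre libraries, of which Slc40a1, an iron exporter that erythroid cells also use and the exception among the 14, made up 30.4 to 88.8%. C1qa, C1qb and C1qc had the smallest p of the list (limma) and were picked after their values were seen. Together they were at 19.8, 7.85 and 12.5 CPM in controls 1, 2 and 3, against 0.0656, 0.0226 and 0.744 CPM in their MaeaCsf1r-Cre counterparts. Other markers were not low in every MaeaCsf1r-Cre library. Vcam1 was at 28.5, 2.6 and 26.7 CPM in controls 1, 2 and 3, against 0.525, 0 and 30 CPM in their MaeaCsf1r-Cre counterparts. Mrc1 was also highest of all 6 libraries in MaeaCsf1r-Cre replicate 3, at 10.8 CPM. None of the 14 was at 0 in all 6 libraries. Abca1 was higher in MaeaCsf1r-Cre replicate 3, where the macrophage sum was 112 CPM, than in replicates 1 and 2, where the sum was 79.9 and 41.3 CPM. Of that 112 CPM, Slc40a1 held 53.3 and Vcam1 30, while C1qa, C1qb and C1qc together were at 0.744 CPM. Among controls Abca1 was highest in replicate 2, where the macrophage sum was lowest. The part of these cells in the Abca1 difference was not tested.

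**Figure D3:**
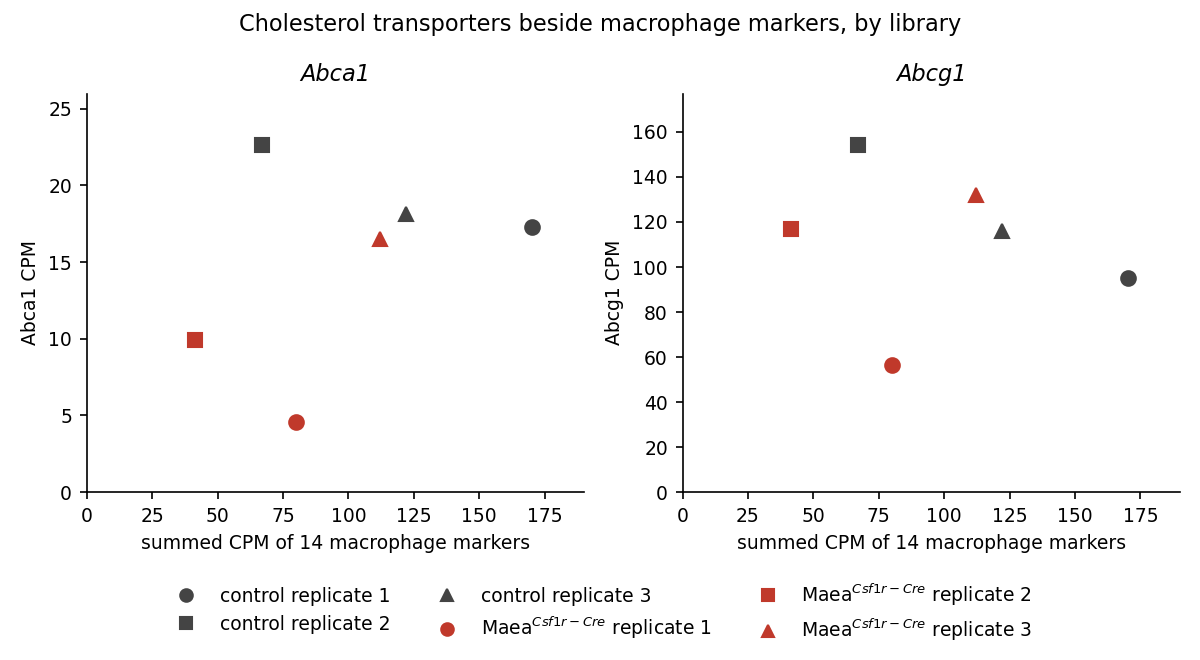
CPM of Abca1 (left) and Abcg1 (right) against the summed CPM of the 14 macrophage markers, 1 point per library. The lowest point of both panels is MaeaCsf1r-Cre replicate 1, and the highest is control replicate 2, which has the smallest macrophage sum of the controls.

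For 7 of the 8 genes more of the spread between libraries went with the replicate number than with the genotype. Of the variation of log2(CPM + 1) over the 6 libraries, replicate number took 95.6% for Abcc1, 90.2% for Abcb1b, 80.9% for Abcg2, 78.3% for Abcc5 and 70.4% for Abcg1. Genotype took 1.41%, 1.07%, 4.59%, 17.5% and 11.9% of it for the same genes. Abca1 was the member with the largest share for genotype, 49.7%, against 27.9% for replicate number. The mean shares over all tested genes were 19.5% for genotype and 55.1% for replicate number, with 1 and 2 degrees of freedom, so these shares are descriptions.

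Libraries numbered 1 had the lowest Abcb1b, Abcb1a, Abcc1, Abca1 and Abcg1 values of both groups and the highest Abcc4 and Abcc5 values of both groups. The 12 HSC markers summed to 1259.8, 1968 and 1832 CPM in the control libraries numbered 1, 2 and 3, and to 898, 1313 and 1663 CPM in the MaeaCsf1r-Cre libraries of these numbers, lowest in replicate 1 of both groups, and 10 of the 12 had a lower mean in MaeaCsf1r-Cre HSCs. Within each group Abca1 put the libraries in the same order as this sum, highest in control replicate 2 and in MaeaCsf1r-Cre replicate 3. The 9 erythroid markers were highest in replicate 1 of both groups, at 855 CPM in control and 883 CPM in MaeaCsf1r-Cre HSCs. Their part in the levels of the transporters was not tested.

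**Figure D4:**
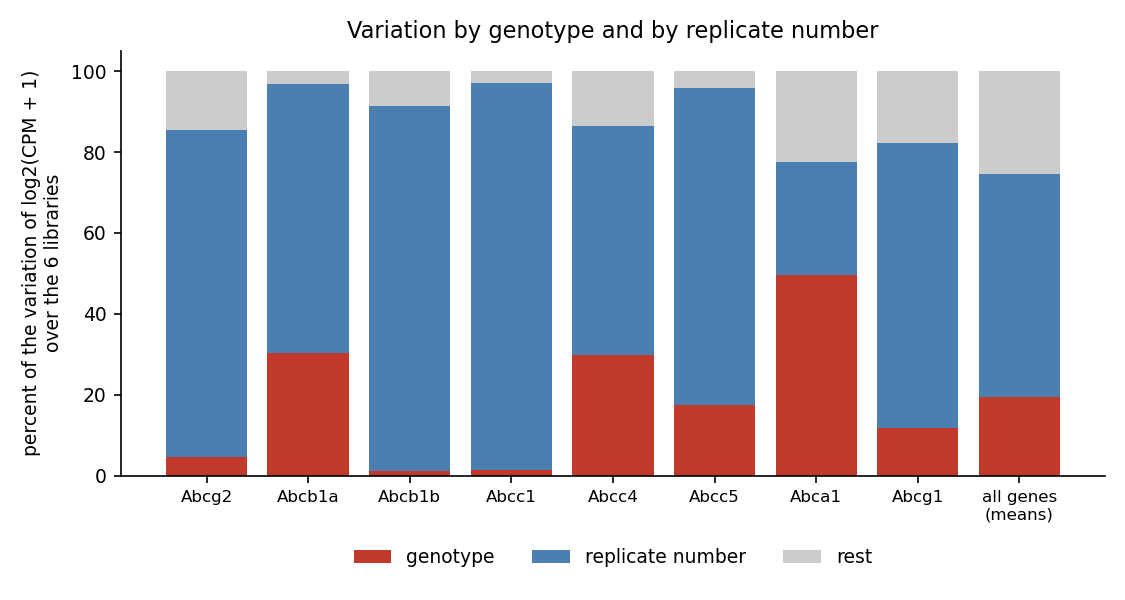
Percent of the variation of log2(CPM + 1) over the 6 libraries that went with genotype (red), with replicate number (blue) and with neither (grey), for each gene and as the mean over all tested genes. The red part is largest for Abca1, at 49.7%, and smallest for Abcb1b, at 1.07%.

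Compared between genotypes, 0 of the 7 genes that passed the filter on low values had an adjusted p under 0.05 (limma, Benjamini-Hochberg over 12955 genes), where 1 of all tested genes, or 0.00772%, did. At an unadjusted p under 0.05 there was 1 of the 7, Abca1, where 517 of all tested genes, or 3.99%, had one in either direction and 3.19% with lower values in MaeaCsf1r-Cre HSCs. Groups did not overlap for 1 of the 7, against 8.55% of tested genes in either direction, 6.06% lower and 2.49% higher in MaeaCsf1r-Cre HSCs. The median log2 difference of the 7 was -0.06, the same to 2 decimals as the median over all tested genes. With the replicate number as a block, 0 of the 7 had an adjusted p under 0.05 (limma), against 0.00772% of all tested genes, and the smallest was that of Abca1, 0.261. At an unadjusted p under 0.05 there was again 1 of the 7 with the block, Abca1, against 13.9% of all tested genes.

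Of the 45 other ABC genes, 26 passed the filter and 0 were called by limma in either direction, with 2 at an unadjusted p under 0.05, Abcg3 and Tap1. Across the whole family of 53 genes, 33 were tested, 17 with a positive and 16 with a negative log2 difference, and 8 were listed at 0 in every library. Among the other efflux pumps, Abcg3, a rodent relative of Abcg2, was at 17.0, 25.6 and 28.9 CPM in the control libraries numbered 1, 2 and 3, and at 5.78, 9.33 and 20.4 CPM in the MaeaCsf1r-Cre libraries of these numbers. Its log2 difference was -1.09 with a standard error of 0.41 (limma, adjusted p = 0.967), and each MaeaCsf1r-Cre library was below its same-numbered control. Abcb4, the phosphatidylcholine floppase next to Abcb1b, was at 146, 54.6 and 60.8 CPM in controls 1, 2 and 3, against 186, 66.1 and 109 CPM in their MaeaCsf1r-Cre counterparts, highest in replicate 1 of both groups, the replicate in which Abcb1b was lowest.

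Among the organelle transporters 11 of 11 genes were tested. Tap1, which carries peptides into the endoplasmic reticulum for MHC class I, was at 183, 215 and 180.5 CPM in controls 1, 2 and 3, against 278, 240.2 and 235 CPM in their MaeaCsf1r-Cre counterparts. The groups did not overlap, and the log2 difference was 0.38 with a standard error of 0.13 (limma, adjusted p = 0.967). The peroxisomal transporter Abcd2 had a log2 difference of -0.78 with a standard error of 0.43. Of the 18 other ABCA and ABCG lipid transporters 6 were tested, where the retinoid transporter Abca4 had a log2 difference of 0.67 with a standard error of 0.40 and Abca2 of -0.19 with a standard error of 0.24. The sulphonylurea receptor Abcc9 (-0.62, standard error 1.05) was the single channel regulator tested. Of the 4 ABCE and ABCF ATPases, which work on ribosomes and translation, Abcf2 had a log2 difference of 0.11 and Abce1 of -0.10.

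**Figure D5:**
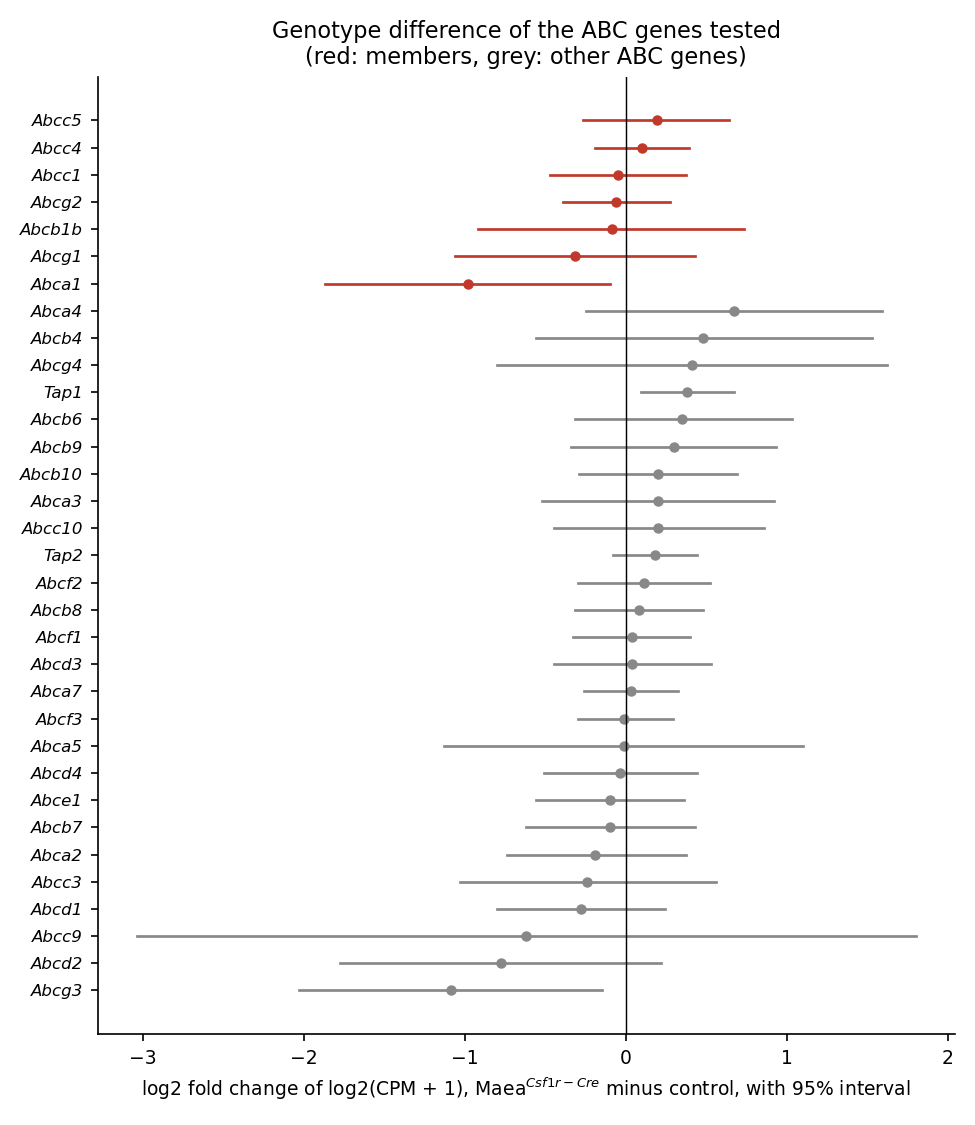
Log2 fold change, the difference of log2(CPM + 1) as MaeaCsf1r-Cre minus control, with its 95% interval from limma, for the 33 ABC genes tested. The 7 members (red) have values between -0.98 and 0.19, inside the span of the other ABC genes (grey), which runs from -1.09 to 0.67.

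Genes of the pathways around these pumps were counted in lists. Of 21 genes of the liver X receptor and cholesterol efflux pathway 20 were tested, and 0 were called by limma, with Scd2 alone at an unadjusted p under 0.05. Their median log2 difference was -0.22, with 16 of 20 negative, where 7895 of all 12955 tested genes were. Nr1h2, the liver X receptor beta gene, averaged 57.6 ± 2.17 CPM in control HSCs against 60.4 ± 1.5 CPM in MaeaCsf1r-Cre HSCs (SD, n = 3 each). Nr1h3, the alpha form found in macrophages, was at 1.72 ± 1.14 and 0.693 ± 0.213 CPM (SD, n = 3 each), a log2 difference of -0.62 with a standard error of 0.32 (limma, adjusted p = 0.967). Scd2, a stearoyl-CoA desaturase, had the smallest p of the list among negative changes, at 253 ± 34.6 and 173 ± 44.7 CPM (SD, n = 3 each), a log2 difference of -0.57 with a standard error of 0.20. Scarb1, the HDL receptor, had a log2 difference of 0.12 with a standard error of 0.15.

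Of 13 regulators of efflux pumps 12 were tested and 0 called by limma, with Hif1a alone at an unadjusted p under 0.05. Hif1a, the hypoxia factor known to act on Abcg2, averaged 69.0 ± 15.8 CPM in control HSCs against 45.9 ± 11.6 CPM in MaeaCsf1r-Cre HSCs (SD, n = 3 each). Its log2 difference was -0.58 with a standard error of 0.22 (limma, adjusted p = 0.967). The log2 difference of Abcg2 was -0.06, and a link between the RNA levels of these genes was not tested. Trp53 had a log2 difference of 0.08 with a standard error of 0.11. The 16 enzymes of glutathione and leukotriene C4, whose products Abcc1 exports, had a median of -0.07 and 0 calls by limma, with Mgst2 alone at an unadjusted p under 0.05. Mgst2, a microsomal glutathione transferase, was at 1.91, 2.07 and 1.55 CPM in controls 1, 2 and 3, against 0.689, 1.11 and 0.97 CPM in their MaeaCsf1r-Cre counterparts, and Gstp1 had a log2 difference of 0.21 with a standard error of 0.15. The 16 enzymes of cyclic nucleotides, the substrates of Abcc4 and Abcc5, had a median of -0.41, with 13 of 16 negative, where 7895 of all 12955 tested genes were. Of these enzymes 0 were called by limma, with Adcy3 alone at an unadjusted p under 0.05. The adenylyl cyclase Adcy3 had a log2 difference of -0.68 with a standard error of 0.26 and groups that did not overlap, and Pde4d of 0.07 with a standard error of 0.17.

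The tested genes most like Abcg2 over the 6 libraries, by Pearson's r of log2(CPM + 1), were Sugt1 (0.995), Ipo9 (0.992) and Ap3m1 (0.992), with 35 genes above 0.95. Those most like Abca1 were Otud1 (0.995), Bdh2 (0.994) and 4833407H14Rik (0.993), with 171 genes above 0.95. The 6 points share their genotype and replicate number within each comparison, and with 12955 genes to choose from the values are descriptions.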

How the data were processed

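Deposited values were CPM, 1 column per library, which the authors made by aligning single-end reads of 150 bases from SMART-Seq v4 and Nextera XT libraries to mm10 with STAR 2.5.3a, quantifying to Ensembl release 83 and normalising in Partek Flow, with 0.0001 added to each value. That constant was subtracted. Whether reads were counted by strand and how reads shared by genes were assigned are not given in the sources used here. Of low values 73.5 to 75.4% lay within 0.05 of a whole read, so no count test was used.

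A gene entered the test when 3 or more libraries reached 1 CPM (12955 of 46959 rows). Tests were run on log2(CPM + 1), which understates changes of low genes, with limma 3.58.1 (moderated test, mean-variance trend, two-sided, Benjamini-Hochberg, threshold 0.05, R 4.3.3). Deviations from the group means correlated between libraries that share a number in the labels (0.627, 0.523 and 0.397, Pearson's r over genes), and a second fit took that number as a replicate block. Positions and lengths came from GENCODE M21 (GRCm38), and promoter windows from RefSeq. Each library was a pool of mice, and p-values measure the spread between these pools. Other pseudocounts, filters and scalings, a length correction and leaving out each library were tried. The members and lists were chosen with earlier results of these data known. Named genes were the 8 members, Maea, Nr1h2, Nr1h3, the tested gene of smallest p in each direction of each list other than markers, and the 3 genes most like Abcg2 and Abca1. The marker genes named (C1qa, C1qb, C1qc, Slc40a1, Vcam1, Mrc1, Cd79b, Ighm, Ms4a1, Pax5, Igll1 and Ly6g) and the overlapping genes Gm42686 and Gm5106 fall outside this rule and were chosen after their values were seen. The procedure was tested on simulated data.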

Additional observations from a re-analysis of the deposited data

How the results depend on the processing

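Across 16 alternatives no member and no gene of the other lists, markers left out, was called by limma. Maea and the marker genes were not part of this count. With the replicate block no call changed. The count of all genes called was 1 in the reported fit, 0 with a filter at a CPM of 10 (302 at an unadjusted p under 0.05), 12 with length correction and the replicate block, 0 without both libraries numbered 3 (545 at an unadjusted p under 0.05, chosen after seeing the data), and 0 to 3 with a library left out. The median of the members, -0.06 as reported, was 0 under median ratios, 0.08 under length correction with or without the replicate block, and -0.19 to 0.06 with a library left out. The count of members whose groups did not overlap was 1 to 2 with a library left out, Abcc5 joining Abca1 without control replicate 1 and Abcc4 joining it without MaeaCsf1r-Cre replicate 3. It was 2 without both libraries numbered 3. Per kb of the longest coding transcript 4 of 8 genes kept their rank in control HSCs.

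The sign turned for Abcb1b under quantile normalization (0.02), length correction (0.05, and 0.05 with the replicate block) and without both libraries numbered 3 (0.03), and its value ranged from -0.45 to 0.20 with a library left out. It turned for Abcc1 under median ratios (0.01) and length correction (0.14, and 0.14 with the block), with -0.19 to 0.10 when a library was left out. For Abcg2 it was 0 under median ratios and 0.08 under length correction (0.08 with the block), with -0.12 to 0.04 when a library was left out, and for Abcg1 that range was -0.55 to 0.06. The cause was not tested. Abca1 stayed negative in all 16, from -1.42 to -0.54, with adjusted p from 0.261 to 1. Log2 fold change fell with merged exon length, the length used for the correction (Spearman's rho = -0.263 across 12449 genes, not independent replicates). The members tested had a median of 8153 exon bases against 4190 for all genes. The depth is known only from the CPM steps.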
